A study of Mus musculus with 4 samples.

Results

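Apoe, Apoc2, Abca1, Abcg1, Lpl, Nr1h3, Plin2, Fabp4, Fabp5 and Pparg are 10 genes by which macrophages sense, export, take up and store lipid. Members were taken from the table by symbol, and each symbol named 1 row among the 34745 genes of the deposited expression table. All 10 passed the filter on low counts, as did 12418 genes in all.

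RNA sequencing was performed on total RNA of cultured mouse macrophages, which the study's text describes as bone marrow-derived macrophages (BMDMs). Cells of G3bp1f/f mice, in which the G3bp1 gene is flanked by loxP sites, were the controls (labelled WT), and cells of G3bp1mac-/- mice, which also carry a Cre recombinase driven by Lyz2, were the knockout (KO). G3BP1 binds RNA and is the scaffold on which stress granules assemble, and no stress or other treatment is given for these cells. Each genotype had 2 libraries, numbered 1 and 2 in the labels. The Lyz2 promoter is also active in monocytes and neutrophils, Cre deletion need not reach every cell, and whether the controls carried Cre is not stated. The age of the mice behind these cells is not given in the sources used here, and nothing says whether the libraries came from separate animals, so the spread between libraries, on which every p-value rests, may be technical.

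Macrophages meet large loads of lipid when they engulf dying cells. Excess cholesterol yields oxysterols that activate the nuclear receptor LXRα (encoded by Nr1h3), which with its partner RXR switches on the export pumps ABCA1 and ABCG1 and the apolipoproteins that carry lipid away, among them apolipoprotein E and apolipoprotein C-II (APOC2). Fatty acids instead activate PPARγ (Pparg), whose known targets include the fatty acid-binding protein FABP4 (a relative of FABP5), lipoprotein lipase (Lpl) and perilipin 2 (Plin2), the main coat protein of macrophage lipid droplets. PPARγ is also known to raise Nr1h3, so both receptors act on the same flow of lipid.

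Promoters of the 10 genes were searched for the elements of these receptors, since the Abca1 promoter is a classic site of control by sterols. LXR with RXR binds a direct repeat known as DR4, which was searched on both strands as GGTCA, any 5 bases and GGTCA again, and in a relaxed form with any base in the 4th place of each GGTCA. PPAR with RXR binds the closer repeat DR1, which was searched in the same way with any 2 bases between the copies. The reference held 11 promoter windows for 6 of the 10 genes (from 250 bases before to 50 bases after a start site, RefSeq, GRCm38.p6). A relaxed DR4 was found in 1 of these windows, that of Abca1, on the opposite strand between 67 and 53 bases before the start. The other forms had no match in these windows. Of all 32544 promoter windows, the relaxed DR4 was in 0.719%, the strict one in 0.0768%, the relaxed DR1 in 1.10% and the strict one in 0.221%. The Abca1 stretch is shown for its position next to the start of the gene whose level varied most among the 10, read in the direction of the gene at chr4:53159908-53160002 (minus strand), with the match in capitals.
Abca1 promoter: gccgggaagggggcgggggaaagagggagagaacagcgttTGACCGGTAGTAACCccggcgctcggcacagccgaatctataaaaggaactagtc

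On the GRCm38 mouse genome, Apoe (chromosome 7, 19696109 to 19699166) and Apoc2 (chromosome 7, 19671579 to 19681423) lie 14685 bases apart in one apolipoprotein cluster, both on the minus strand. As the table delimits it, the Apoc2 locus spans all 3323 bases of Apoc4, so counts of these 2 genes could be confused. Apoc4 had only 4, 0, 0 and 1 counts in WT 1, WT 2, KO 1 and KO 2, and Apoc1, which lies 3450 bases from Apoe, had 6, 9, 3 and 4. In contrast to Apoe, these cluster members were thus near the limit of detection. The flanking genes Tomm40, a subunit of the mitochondrial import pore, and Clptm1 had between 418 and 3420 counts, with log2 fold changes of KO over WT (log2FC) of 0.07 (standard error, SE, 0.28) and 0.17 (SE 0.23).

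Fabp4 (chromosome 3, 10204088 to 10208576, minus strand) and Fabp5 (chromosome 3, 10012548 to 10016607, plus strand) lie 187480 bases apart in a second cluster. The other genes of that cluster, Fabp9, Fabp12 and Pmp2, had 0 counts in every library, for which the depth allows, by counting error only, at most 0.152 to 0.188 CPM (gene counts brought to one library size). Impa1, an enzyme of inositol recycling at the edge of the cluster, had 1077 to 1268 counts and a log2FC of -0.11 (SE 0.22). In this family, counts were therefore found only for Fabp4 and Fabp5 among the cluster members examined. The remaining genes stand alone: Abca1 (chromosome 4, 53030787 to 53159895), Plin2 (chromosome 4, 86648386 to 86670060), Abcg1 (chromosome 17, 31057698 to 31115777), Lpl (chromosome 8, 68880491 to 68907448), Nr1h3 (chromosome 2, 91184061 to 91202834) and Pparg (chromosome 6, 115360951 to 115490399).

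The libraries held 16724241 to 19747909 gene counts. G3bp1 had 1691 and 2875 counts (WT) and 1307 and 2296 counts (KO), with a log2FC of -0.61 (SE 0.40) and an adjusted p of 0.904 (edgeR, quasi-likelihood test, Benjamini-Hochberg adjustment). Leaving out 1 library moved this value between -0.19 (WT replicate 2) and -1.02 (KO replicate 2). Whole-gene counts do not resolve the floxed exons, so this gene could not check the labels, and every direction below is that of the libraries labelled KO. Lyz2, the Cre locus, had 297591 to 383749 counts and a log2FC of -0.16 (SE 0.17), which lay between -0.30 and -0.04 when 1 library was left out and turned sign with a correction for gene length (0.11). All 10 macrophage markers were above 1 CPM in every library and summed to 24922 to 26653 CPM for WT and 21351 to 25038 CPM for KO.

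Since Fabp4, Plin2, Lpl and Pparg are also fat cell genes, markers of adipocytes were examined. Of 10 such markers, 7 (Adipoq, Cfd, Cidec, Lep, Pck1, Plin1 and Plin4) had 0 counts in all 4 libraries, and the list summed to 0.0628 to 0.185 CPM for WT and 1.07 to 1.50 CPM for KO, where Slc36a2 gave 28 and 17 of its counts. Markers of stromal cells (12 genes) summed to 109 to 112 CPM in WT and to 345 to 381 CPM in KO, with 9 of the 11 tested higher in both KO libraries than in both WT libraries, beside 20.0% of all tested genes. No stromal marker was at 0 in every library. Endothelial markers (8 genes, of which Cldn5, Emcn, Gpihbp1 and Tek were at 0 throughout) summed to 23.3 to 32.6 CPM for WT and 37.3 to 55.8 CPM for KO, those of neutrophils (8 genes, Elane and Mpo at 0) to 21.2 to 22.1 CPM and 7.73 to 11.3 CPM, and those of dendritic cells (8 genes) to 6.23 to 8.97 CPM and 6.33 to 8.18 CPM. The part of these cell type signals in the values of the lipid genes was not tested, and in such bulk RNA a smaller share of macrophages and less of a transcript per macrophage cannot be told apart.

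The 10 genes covered a wide range of levels. Compared per length in the deposited FPKM (counts scaled by gene length and library total), Apoe averaged 1003 FPKM over the 4 libraries and ranked 43rd of all genes, and Fabp5 averaged 916 FPKM. Plin2 (308 FPKM), Lpl (283 FPKM) and Fabp4 (143 FPKM) followed. The receptors and pumps were lower, with 23.5 FPKM for Pparg, 19.9 for Abcg1, 17.7 for Nr1h3 and 9.11 for Abca1, and Apoc2 was last with 5.39 FPKM. Neighbours in this order overlapped between libraries (Apoe from 790 to 1441 and Fabp5 from 742 to 1332 FPKM, for example), except between Fabp5 and Plin2 (185 to 465 FPKM) and between Fabp4 (75.2 to 265 FPKM) and Pparg (13.5 to 33.7 FPKM). The macrophages thus carried abundant transcripts for a secreted lipid carrier and for fatty acid binding and storage, above those for the lipid receptors and the pumps. With exon lengths merged per gene from the GENCODE annotation, chosen after seeing the data, the same steps stood (Fabp5 1085, Plin2 460, Fabp4 163 and Nr1h3 36.5 FPKM), while Apoe was at 2623 FPKM and the last place went to Abca1 (9.28), next to Apoc2 (9.59).

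**Figure D1:**
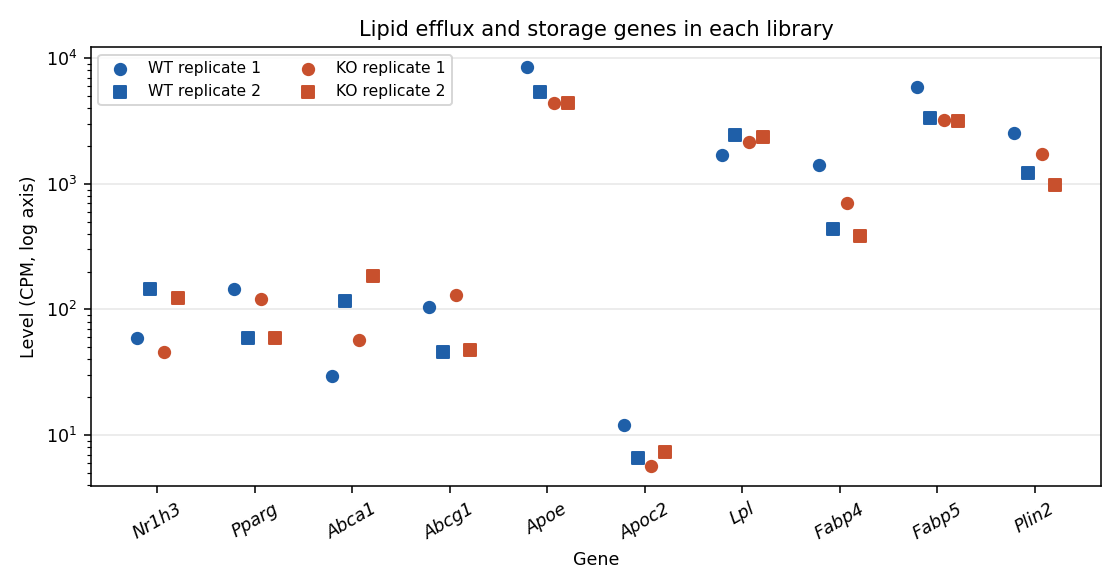
Level of each of the 10 genes in CPM (log axis) in the 4 libraries, with circles for replicate number 1, squares for number 2, blue for WT and orange for KO. For Abca1, Nr1h3 and Lpl both squares lie above both circles, and for Abcg1, Pparg, Fabp4 and Plin2 both circles lie above both squares, while for Apoe and Fabp5 both orange points lie below both blue points.

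For 7 of the 10 genes the libraries numbered 1 and 2 differed by more than the genotypes did, as they did for 54.6% of all tested genes. Compared were the sizes of the mean log2 differences, in which opposite signs cancel. The other genes were Apoe, Apoc2 and Fabp5, and for Apoc2 the signs were opposite in both comparisons. What the numbers stand for (a culture, a mouse or a day) is not given in the labels, so the values are described with no test.

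Abca1, the pump that hands cholesterol to lipid-poor apolipoproteins, had 29.8 CPM in WT 1, 116 in WT 2, 57.3 in KO 1 and 184 in KO 2. Library 2 held 3.91 times the level of library 1 in WT and 3.20 times in KO. Nr1h3, the gene of LXRα, ran the same way, with 58.8, 146, 45.6 and 123 CPM in the same order, or 2.49-fold in WT and 2.70-fold in KO. Both genes were thus low in the libraries numbered 1 and high in those numbered 2, whatever the genotype.

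Abcg1, the pump that loads cholesterol onto high-density lipoprotein and the usual companion of Abca1 as an LXR target, ran the opposite way. It had 104 CPM in WT 1, 46.1 in WT 2, 129 in KO 1 and 47.6 in KO 2, so that library 1 exceeded library 2 by 2.25-fold in WT and 2.72-fold in KO. Pparg was likewise higher in number 1, with 147, 59.6, 120 and 59.5 CPM, or 2.46-fold in WT and 2.02-fold in KO. Abcg1 and Pparg were thus high where Abca1 and Nr1h3 were low.

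Of the PPARγ targets, Fabp4 had 1422, 436, 700 and 387 CPM in WT 1, WT 2, KO 1 and KO 2, which is 3.26-fold higher in number 1 in WT and 1.81-fold in KO, and Plin2 had 2553, 1214, 1718 and 972 CPM, 2.10-fold and 1.77-fold. Lpl, also a PPARγ target, ran the other way, with 1708, 2454, 2139 and 2371 CPM. For the remaining genes the numbers lay further apart in WT than in KO. The log2 ratio of number 2 to number 1 was -0.65 in WT and 0.012 in KO for Apoe, -0.82 and -0.02 for Fabp5, 0.52 and 0.15 for Lpl, and -0.88 and 0.37 for Apoc2. In all, 3 genes were higher in number 2 in both genotypes (Abca1, Nr1h3 and Lpl) and 5 were lower in both.

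**Figure D2:**
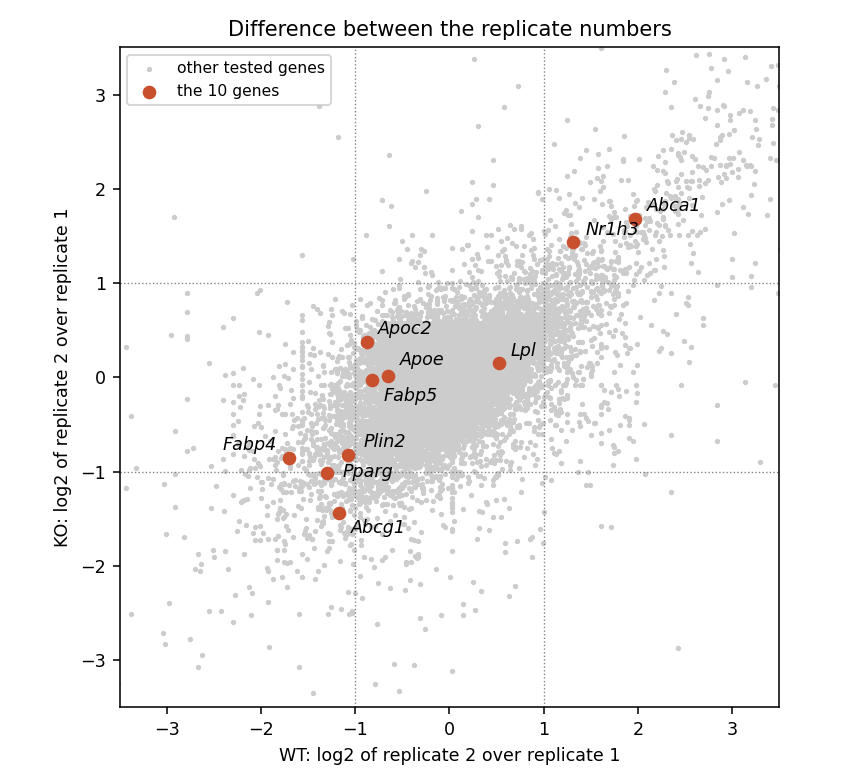
Log2 ratio of replicate 2 to replicate 1 in WT (x axis) and in KO (y axis) for all tested genes (grey) and the 10 lipid genes (orange, named), with dotted lines at a 2-fold difference and 151 genes outside the plotted range. Abca1 and Nr1h3 lie in the upper right corner and Abcg1 and Pparg in the lower left, beyond the dotted lines on both axes.

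A difference of at least 2-fold in the same direction in both genotypes was found for 4 of the 10 genes, against 6.78% of the tested genes. By direction, 2 genes (Abca1 and Nr1h3) were higher in number 2, as were 4.36% of tested genes, and 2 (Abcg1 and Pparg) were higher in number 1, as were 2.42%. The genes were also ranked by the size of the mean log2 ratio over both genotypes, in which opposite signs cancel, as they did for Apoc2 and Apoe. By this rank Abca1 was within the top 3.44% of tested genes, Nr1h3 within 5.89%, Abcg1 within 6.54%, Fabp4 within 6.84% and Pparg within 8.23%. Plin2 (12.0%), Fabp5 (36.1%), Lpl (44.6%), Apoe (46.5%) and Apoc2 (55.4%) followed.

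The comparison the study was designed for asked which genes differ between the genotypes. None of the 10 genes passed the test. A gene was called where edgeR's quasi-likelihood test gave an adjusted p under 0.05 and the log2FC was over 1 in size, and 0 of the 10 were called, as were 0% of the 12418 tested genes. The study did report differentially expressed genes between these genotypes, with edgeR at the same limits and without naming which of its tests. The 0% is thus not the study's own outcome. At an unadjusted p under 0.05 there were also 0 of the 10, against 6.63% of tested genes. The DESeq2 Wald test, which called 1.46% of tested genes, the edgeR exact test, which called 1.84%, and limma on log2(FPKM + 0.1), which called 0.0149%, likewise called 0 of the 10. So did the fit with the replicate number as a term, which called 5.35% of tested genes, or 2.57% with a correction for gene length. The smallest adjusted p of the 10 was that of Apoe, 0.758. The median log2FC over the 10 was -0.38 (quartiles -0.54 and 0.04) beside 0.04 for all tested genes. Of the 10, 3 had a log2FC above 0, as did 54.6% of tested genes. Both KO libraries were below both WT libraries for 2 of the 10 (Apoe and Fabp5), beside 16.9% of tested genes, and above them for 0 of the 10, beside 20.0%.

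Of the receptors, Nr1h3 had 953 and 2329 counts (WT) and 850 and 2423 counts (KO), which is a mean of 102 ± 61.8 CPM against 84.4 ± 54.8 CPM (SD, n = 2 each). Its log2FC was -0.28 (95% confidence interval -1.87 to 1.31, adjusted p in edgeR 0.980), with KO to WT ratios (log2) of -0.37 in number 1 and -0.25 in number 2. The pooled sign turned to 0.49 without WT replicate 2 and to 0.26 without KO replicate 1. Pparg had 2377 and 950 counts (WT) and 2239 and 1171 counts (KO), a log2FC of -0.20 (interval -1.58 to 1.19, adjusted p in edgeR 0.982). The libraries numbered 1 gave a ratio of -0.29 and those numbered 2 of -0.0033, and the sign turned without WT replicate 1 (0.60), without KO replicate 2 (0.22) and with limma on log2(FPKM + 1) (0.0068). For both lipid receptors the ratios of KO to WT were smaller in size than the difference between the numbers, and in number 2 Pparg was level between the genotypes (59.6 and 59.5 CPM, or 13.5 and 14.3 FPKM).

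Of the export pumps, Abca1 had 483 and 1855 counts (WT) and 1068 and 3613 counts (KO), which is a mean of 73.1 ± 61.3 CPM against 120 ± 89.3 CPM (SD, n = 2 each). The log2FC was 0.72 (SE 0.81, interval -1.33 to 2.77), and the adjusted p in edgeR was 0.962. With the replicate number as a term, which the labels do not establish as a pairing, the value was 0.80 (adjusted p in edgeR 0.0104), under the limit on fold change. With a correction for gene length added, it was 0.57 (adjusted p in edgeR 0.111). KO exceeded WT by 0.94 on the log2 scale within number 1 and by 0.66 within number 2, but the genotypes overlapped because KO 1 was below WT 2. Leaving out WT replicate 2 gave 1.98 and leaving out WT replicate 1 gave 0.05, and without KO replicate 1 or KO replicate 2 it was 1.33 or -0.35. Abcg1 had 1682 and 734 counts (WT) and 2407 and 936 counts (KO), a log2FC of 0.24 (SE 0.60, interval -1.29 to 1.77, adjusted p in edgeR 0.982), with ratios of 0.32 in number 1 and 0.05 in number 2 and values of -0.26 without WT replicate 2 and -0.65 without KO replicate 1. Both pumps were thus numerically higher in KO within each number, with intervals that held differences of more than 2-fold in either direction.

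Apoe, the carrier that macrophages secrete with the exported cholesterol, had 137025 and 85740 counts (WT) and 81858 and 87193 counts (KO). The levels were 8448 and 5381 CPM for WT against 4393 and 4430 CPM for KO, or 6914 ± 2168 and 4411 ± 26.1 CPM (SD, n = 2 each). The KO libraries lay close together and below both WT libraries, and WT replicate 1 stood above the other 3. Its log2FC was -0.65 (SE 0.26, interval -1.31 to 0.01, adjusted p in edgeR 0.758), with KO to WT ratios (log2) of -0.94 in number 1 and -0.28 in number 2. Without WT replicate 1 the value was -0.28, and without WT replicate 2 it was -0.97, so the lower level in KO rested in large part on 1 library. Apoc2, the activator of lipoprotein lipase, had 195 and 104 counts (WT) and 105 and 144 counts (KO), a log2FC of -0.52 (SE 0.39, interval -1.52 to 0.48, adjusted p in edgeR 0.933). Its ratios had opposite signs within the numbers (-1.09 and 0.16), and the value moved to -0.0076 when WT replicate 1 was left out and to -0.92 when WT replicate 2 was.

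Lpl, the lipase that APOC2 activates and that releases fatty acids from lipoprotein triglyceride, was the most even of the 10. It had 27704 and 39097 counts (WT) and 39853 and 46677 counts (KO), which is a mean of 2081 ± 527 CPM against 2255 ± 165 CPM (SD, n = 2 each). The difference was 0.12 on the log2 scale (SE 0.25, interval -0.51 to 0.75, adjusted p in edgeR 0.978), with ratios of 0.32 in number 1 and -0.05 in number 2. The sign turned to -0.12 without WT replicate 1 and to -0.04 with a correction for gene length. A 2-fold difference of Lpl between the genotypes lay outside this interval.

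The intracellular fatty acid-binding proteins carry fatty acids to droplets, membranes and nuclear receptors. Fabp5 had 95687 and 53265 counts (WT) and 59608 and 61949 counts (KO), or 5899 and 3343 CPM for WT against 3199 and 3147 CPM for KO. As for Apoe, WT replicate 1 stood alone at the top and the KO libraries were close to each other. The log2FC of Fabp5 was -0.54 (SE 0.31, interval -1.32 to 0.23, adjusted p in edgeR 0.878), and it moved to -0.07 when WT replicate 1 was left out and to -0.93 when WT replicate 2 was. Fabp4 had 23061 and 6946 counts (WT) and 13038 and 7611 counts (KO), and its genotypes overlapped. Its log2FC was -0.77 (SE 0.62, interval -2.34 to 0.79, adjusted p in edgeR 0.939), with KO to WT ratios (log2) of -1.02 in number 1 and -0.17 in number 2, and without WT replicate 1 the sign turned (0.32).

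Plin2, which coats and protects stored droplets, had 41419 and 19344 counts (WT) and 32019 and 19126 counts (KO), which is a mean of 1884 ± 947 CPM against 1345 ± 528 CPM (SD, n = 2 each). Its log2FC was -0.49 (SE 0.46, interval -1.64 to 0.67, adjusted p in edgeR 0.957). The ratio was negative within both numbers (-0.57 and -0.32), and the pooled sign turned without WT replicate 1 (0.15). Plin2 therefore had lower values in KO of the same number, by less than the spread between libraries of a genotype.

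**Figure D3:**
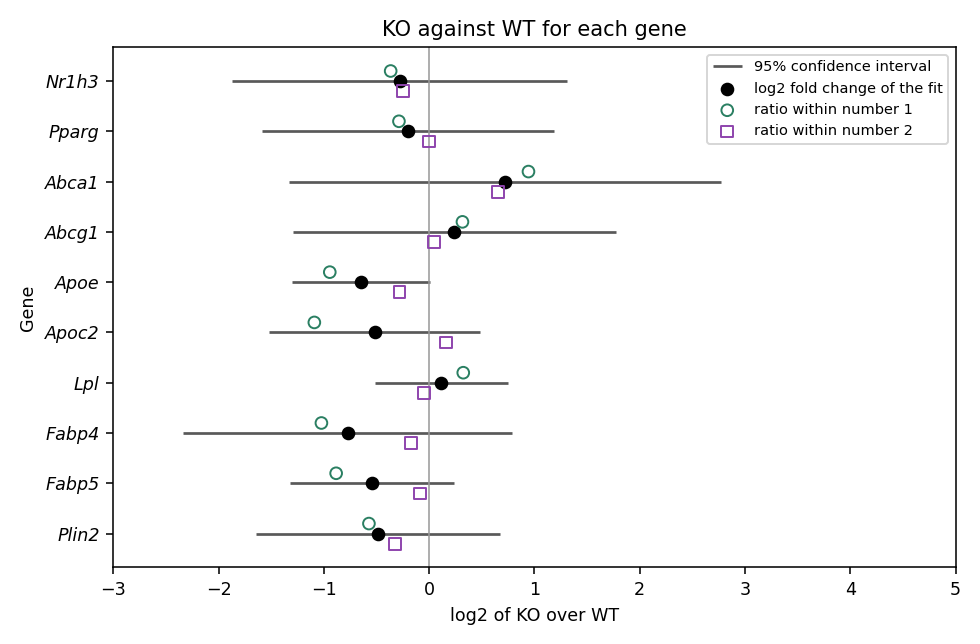
Log2 of KO over WT for each gene: filled points are the fitted log2 fold changes with their 95% confidence intervals as bars (n = 2 libraries per genotype), and open circles and squares are the ratios within replicate numbers 1 and 2. Every interval includes 0, that of Apoe from -1.31 to 0.01, and for Apoe, Apoc2, Fabp4 and Fabp5 the ratio within number 1 lies well to the left of that within number 2.

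Across the 10 genes, the libraries numbered 1 had a median KO to WT ratio (log2) of -0.47, and those numbered 2 of -0.07. The sign was shared by both numbers for 8 of the 10, beside 65.0% of tested genes: positive for Abca1 and Abcg1, and negative for Apoe, Fabp4, Fabp5, Plin2, Nr1h3 and Pparg. On the deposited FPKM the sign in number 2 turned for Pparg and for Lpl (301 FPKM for WT and 309 for KO). WT replicate 1 held the highest level of Apoe, Apoc2, Fabp4, Fabp5, Plin2 and Pparg, and the lowest of Abca1 and Lpl.

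Other genes of the same pathways were then described from 3 lists. The first held 26 other genes of sterol sensing by LXR and of cholesterol release, of which 24 were tested and 0 were called. Their median log2FC was 0.10, 18 (75%) were above 0, beside 54.6% of all tested genes, and both KO libraries were above both WT libraries for 3 and below for 3, beside 20.0% and 16.9% of all tested genes. Arl4c, a small GTPase known as an LXR target, had 114 and 124 counts (WT) and 452 and 181 counts (KO), a log2FC of 1.17 (SE 0.50, adjusted p in edgeR 0.795) that was 0.31 without KO replicate 1. Rxra, the RXR partner of both receptors, had 577 and 614 counts (WT) and 1099 and 846 counts (KO) and a log2FC of 0.46 (SE 0.26), which moved to 0.21 when KO replicate 1 was left out and to 0.28 with the gene length correction. At the other end were Npc2, which moves cholesterol out of lysosomes, with 50829 and 41398 counts (WT) and 37692 and 41979 counts (KO) and a log2FC of -0.46 (SE 0.20), and Apoa1bp (also called Naxe), which binds apolipoprotein A-I, with 1869 and 1250 counts (WT) and 1242 and 1299 counts (KO) and a log2FC of -0.55 (SE 0.27). The value of Apoa1bp was -0.24 without WT replicate 1 and -0.14 with the gene length correction. None of these 4 was called in the quasi-likelihood test. With the replicate number as a term, Arl4c was called (1.03, adjusted p in edgeR 0.0021). It was not called with the gene length correction added (0.86, adjusted p in edgeR 0.211), and the labels do not establish that the numbers are paired.

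The second list held 25 other genes of lipid droplet coats, formation and breakdown, of which 18 were tested and 0 were called. Plin1, Plin4, Plin5, Cidea and Cidec (with Plin3, named after their values were seen), droplet proteins best known from fat, muscle or liver cells, had 0 counts in every library, whereas Plin3, a more widely expressed perilipin, had 2427 to 4145 counts. The median log2 fold change was -0.03, and both KO libraries were below both WT libraries for 4 of the 18 and above for 0, beside 16.9% and 20.0% of all tested genes. Hilpda, a hypoxia-responsive droplet protein that inhibits the triglyceride lipase PNPLA2, stood lowest of those with at least 1 CPM, with 3403 and 2793 counts (WT) and 1315 and 1669 counts (KO). Its mean was 193 ± 24.4 CPM in WT against 77.7 ± 10.1 CPM in KO (SD, n = 2 each), with a log2FC of -1.31 (SE 0.25, interval -1.94 to -0.68) and ratios of -1.57 in number 1 and -1.05 in number 2. Its unadjusted p was 0.0029 and its adjusted p 0.276 in edgeR's quasi-likelihood test, whereas the DESeq2 Wald test called it (adjusted p 0.0014). The edgeR fit with the replicate number as a term also called it (adjusted p 1.2e-06, or 0.0105 with the gene length correction). The labels do not establish that the numbers are paired. Leaving out any 1 library gave values from -1.46 to -1.17 for Hilpda. Tmem159, which acts where droplets form, had 667 and 435 counts (WT) and 459 and 517 counts (KO) and a log2FC of -0.43 (SE 0.28), which moved to -0.10 when WT replicate 1 was left out and to -0.72 when WT replicate 2 was. Cideb, named after its values were seen, had only 27 and 18 counts (WT) and 9 and 5 counts (KO). It was called only with the replicate number as a term and without the gene length correction. Pnpla2 itself, also named after its values were seen, had 719 to 1429 counts with overlapping genotypes and a log2FC of 0.19 (SE 0.33).

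The third list held 27 genes of fatty acid uptake, PPAR signalling and mitochondrial fatty acid oxidation, of which 23 were tested and 0 were called. Their median log2FC was 0.03, 13 (56.5%) were above 0, beside 54.6% of all tested genes, and both KO libraries were above both WT libraries for 3 and below for 3, again beside 20.0% and 16.9%. On the positive side were Slc27a4, a fatty acid transporter, with a log2FC of 0.15 (SE 0.21) that was 0.07 without KO replicate 1 and 0.05 with the gene length correction, and Acadvl, the very-long-chain acyl-CoA dehydrogenase, with 0.10 (SE 0.22). On the negative side were Acadl, the long-chain enzyme of the same family, with -0.30 (SE 0.22), and Slc25a20, the mitochondrial carnitine carrier, with -0.23 (SE 0.22). The sign of Acadvl turned to -0.0072 with the gene length correction. Vldlr, a lipoprotein receptor named after its values were seen, had 6 and 6 counts (WT) and 19 and 36 counts (KO). It was called only with the replicate number as a term and without the gene length correction. Ppara had 5, 0, 0 and 0 counts, whereas Ppard, named after its values were seen like Ppara, had 109 to 227 counts.

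**Figure D4:**
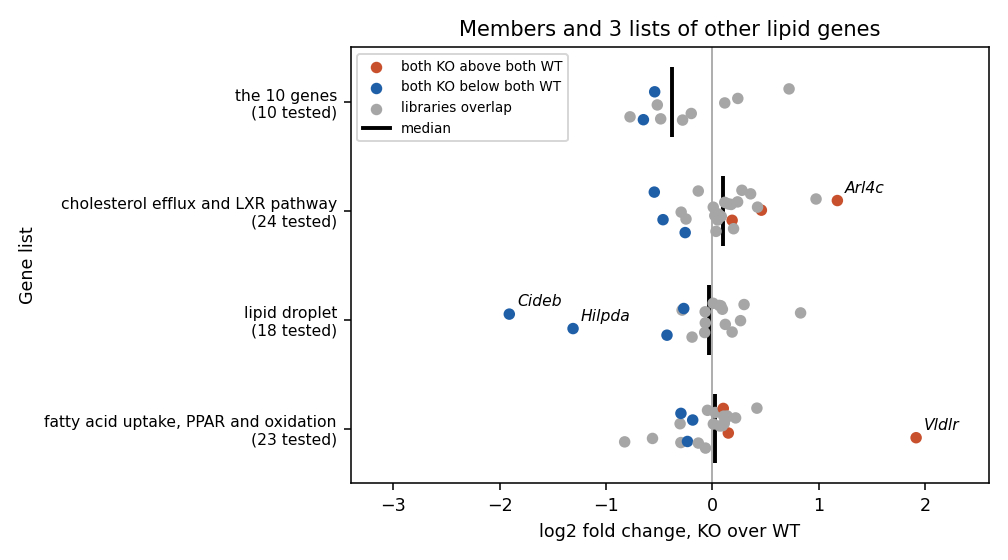
Log2 fold change of KO over WT (x axis) for the 10 genes and for the tested genes of the 3 lists, coloured where both KO libraries lay above (orange) or below (blue) both WT libraries, with a black bar at each median. The medians are -0.38, 0.10, -0.03 and 0.03 from top to bottom, and Hilpda and Cideb lie far to the left of the droplet list.

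In the lists, by the same measure, the difference between the replicate numbers was larger than the genotype difference for 17 of 24 genes (70.8%) of the first, 12 of 18 (66.7%) of the second and 16 of 23 (69.6%) of the third, beside 54.6% of all tested genes. A difference of at least 2-fold in the same direction in both genotypes was found for 2, 1 and 1 genes of these lists, a share near the 6.78% of all tested genes. Named after their values were seen, these were Ch25h (5, 21, 16 and 46 counts in WT 1, WT 2, KO 1 and KO 2), Nceh1 (8739, 3848, 12040 and 5379 counts), Lpin1 (379, 63, 470 and 89 counts) and Fabp3 (197, 1445, 184 and 1445 counts). Ch25h, which makes an oxysterol that activates LXR and had few counts, and Fabp3, a further fatty acid-binding protein, were higher in number 2. Nceh1, which frees cholesterol from its stored esters, and Lpin1, which makes the precursor of triglyceride, were higher in number 1. Whatever the size, 3, 5 and 6 genes of the lists were higher in number 2 in both genotypes. In contrast, 12, 6 and 12 were lower in both, beside 4006 higher and 4056 lower among all tested genes.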

How the data were processed

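Total RNA of cultured macrophages was sequenced in 2 WT and 2 KO libraries, grouped by their titles. The authors filtered reads with Seqtk, aligned them with HISAT2 2.0.4, counted fragments per gene with StringTie 1.3.3b and deposited raw counts with an FPKM value beside each count (no TMM factor: the implied gene length differed between libraries by at most 0.00398% over 10564 genes). The submitters' processing notes name mm39, but 27759 of the 34344 gene identifiers found in GENCODE M21 had the same start, end and strand on GRCm38, so positions are on GRCm38. The implied length equalled the sum of all distinct exons (within 1%) for 69.1% of 12389 tested genes, so overlapping exons were counted repeatedly and FPKM orders between genes depend on the annotation. Whether counting used the strand is not stated.

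The counts were tested in R 4.3.3 with edgeR 4.0.16 (filterByExpr with minimum count 10 and total 15, TMM, glmQLFit, glmQLFTest, two-sided, genotype as the only term, Benjamini-Hochberg adjustment over 12418 genes). Genes were called where adjusted p was under 0.05 and log2FC over 1 in size, as the study's methods set it. Standard errors and 95% intervals came from the F statistic. CPM used TMM-scaled totals (factors 0.942 to 1.12), ratios within a number had 0.5 counts added, and a count of 0 was given a limit of 3 counts, which covers counting error only, since reads carried no molecular identifiers. An exact permutation test of 2 against 2 libraries cannot pass the threshold and was not used. No library repeated another: chi-square over degrees of freedom was 22.7 to 125 between pairs.

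The genes and lists were chosen with earlier results of these data known. Named were the 10 genes, their genomic neighbours (Apoc1, Apoc4, Tomm40, Clptm1, Fabp9, Fabp12, Pmp2, Impa1), G3bp1, Lyz2 and, from each list, up to 4 called genes or else, among genes with a mean of at least 1 CPM and non-overlapping genotypes, the 2 highest and 2 lowest. Marker genes were named where they had no counts in any library, and the marker Slc36a2 was named after its values were seen. Any other gene is marked as named after its values were seen. Alternatives were size factors of DESeq2, no filter or a minimum mean of 1 CPM in its place, no minimum fold change, Wald tests in DESeq2 1.42.0, exact tests in edgeR, limma 3.58.1 on log2(FPKM + 1) or log2(FPKM + 0.1) for genes that reached 0.1 FPKM in 2 libraries, a replicate block, a loess correction for gene length (span 0.5) with and without that block, and each library left out in turn.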

Additional observations from a re-analysis of the deposited data

How the results depend on the processing

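The count of the 10 genes called was 0 under every alternative that kept all libraries. Of all tested genes, 0 were likewise called with DESeq2 size factors, no filter, a minimum mean of 1 CPM or no minimum fold change. The same held for limma on log2(FPKM + 1) and for the length correction alone, so in these fits the 0 was shared by all genes. Where leaving out a library left a genotype with 1 library, it was assumed to vary like the other, and only effect sizes are given. With the DESeq2 Wald test 1 gene of the lipid droplet list was called (Hilpda). Of 14 alternatives for each of the 10 genes, 14 of 140 values turned sign, in 7 genes, and Apoe, Apoc2 and Fabp5 kept theirs. Leaving out each library gave -0.35 to 1.98 for Abca1, -0.65 to 0.95 for Abcg1, -0.12 to 0.37 for Lpl, -1.17 to 0.49 for Nr1h3, -0.96 to 0.15 for Plin2, -1.42 to 0.32 for Fabp4, -0.79 to 0.60 for Pparg, -0.0072 to 0.19 for Acadvl and -0.21 to 0.31 for Tomm40. With no turn of sign it gave 0.05 to 0.27 for Clptm1, -0.19 to -0.06 for Impa1, -0.62 to -0.32 for Npc2, -0.40 to -0.21 for Acadl and -0.29 to -0.19 for Slc25a20, and the length correction gave 0.08 for Clptm1, -0.28 for Impa1, -0.19 for Acadl and -0.35 for Slc25a20. On log2(FPKM + 1) and log2(FPKM + 0.1) the signs of Pparg (0.0068 and 0.0083) and Impa1 (0.037 and 0.041) turned. With the gene length correction, alone and with the block, so did those of Lpl (-0.039 and -0.028), Acadvl (-0.0072 and -0.0023), Tomm40 (-0.052 and -0.068) and Lyz2 (0.11 and 0.11). The cause of these turns was not tested. The median log2 fold change of all genes was 0.04 in the reported fit, 0.0026 with DESeq2 size factors, 0.11 and 0.18 on the FPKM scales, -0.06 with the length correction and -0.05 with it and the block.

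The labels number the libraries 1 and 2 in both genotypes without saying that a number is shared, and with 2 pairs the numbers do not establish pairing, although deviations from the genotype means correlated across genes (0.727). A replicate block in edgeR raised the calls among all tested genes from 0 to 664, or 319 with the length correction. It called 0 of the 10 genes, 1 of the cholesterol efflux list (Arl4c, log2 fold change 1.03, adjusted p 0.0021, or 0.86 and 0.211 with the length correction), 2 of the lipid droplet list (Hilpda and Cideb) and 1 of the fatty acid list (Vldlr), and with the length correction 0, 0, 1 (Hilpda) and 0. With the block Abca1 had a log2 fold change of 0.80 and an adjusted p of 0.0104, under the limit on fold change, and with the length correction 0.57 and 0.111. G3bp1 had -0.60 with an adjusted p of 0.0853, and with the length correction -0.76 and 0.0432. Over all alternatives the adjusted p of the 10 genes ran from 0.0104 to 1, and without the block from 0.423 to 1. With 2 libraries a genotype, the intervals of all of the 10 genes except Lpl include a 2-fold difference, and at this depth Apoc1 and Apoc4 had too few counts to be tested.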
